A study of Mus musculus with 3 samples.

Results

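The genes described are the 78 mitochondrial ribosomal protein genes of the mouse, chosen by name as every protein-coding gene whose symbol is Mrpl or Mrps followed by a number, out of 21779 protein-coding genes. There were 49 Mrpl genes, named for the large subunit, and 29 Mrps genes, named for the small subunit. The data were peaks of 5-hydroxymethylcytosine (5hmC) in bone marrow cells, from a series of 2 samples of an acute myeloid leukaemia called NIDF-AML and 1 sample of normal marrow. The leukaemia was driven by 4 alterations together, FLT3-ITD, the DNMT3A change R882H, the nucleophosmin mutant NPMc and the IDH2 change R140Q. The labels give no strain, age, sex or vector, and do not say whether animals were pooled.

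Mitochondria make the few proteins encoded in their own genome on a ribosome of their own, the mitoribosome, whose RNA comes from mitochondrial DNA and whose proteins are all encoded in the nucleus. Some of these proteins have counterparts in bacterial ribosomes, and others exist only in mitochondria. The proteins translated are core subunits of the respiratory chain and the ATP synthase, so the genes are needed in nearly every cell type. 5hmC is made from 5-methylcytosine by TET enzymes, which use 2-oxoglutarate, and mutant IDH2 makes 2-hydroxyglutarate, an inhibitor of these enzymes. 5hmC is known to lie mainly in the bodies and surroundings of active genes and to be low at starts of genes that lie in CpG islands.

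Of the 3 samples, the peak lists filed under both leukaemia samples were read, and no list filed under normal marrow is analysed here. Both lists held the same 223267 lines, so they were counted as 1 list of 208468 distinct peaks, with no replicate and no comparison of leukaemia with normal marrow. Both file headers name index 4 as the treatment library, against index 5 in one and index 6 in the other, and neither labels nor headers tie an index to a sample, so index 4 may be any of them. Every value below is therefore, by the headers, a property of peaks called in the index 4 library against a control library, which is also tied to no sample. The headers name different controls but the lines are the same. Which control shaped the list, if any did, thus cannot be told. If a control shaped it and held 5hmC too, sites with as much of it there may be missing from the list. Read depth is unknown, a peak carries no height, and a gene without a peak is a gene at which none was listed. In a mixture of cells, more cells with the mark and more mark per cell cannot be told apart. Of the marker genes looked at, 7 of 7 myeloid genes, such as Spi1 with 34 peaks within 5 kb and Elane with 11, 3 of 3 B lineage genes and 3 of 3 erythroid genes had a peak. The neuronal genes Snap25 and Syt1 had 0, and of the hepatocyte genes Alb had 0 and Apoa1 3. Over all protein-coding genes the share with a peak within 5 kb was 73.1%. Such small sets therefore do not settle which cells were sampled.

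Nearly every mitochondrial ribosomal protein gene had a 5hmC peak in or near it. A peak midpoint lay in the gene or within 5 kb of it at 77 of the 78 genes (98.7%, exact binomial interval 93.1 to 99.97%), against 73.1% of all protein-coding genes and 70.7% of genes of like span. Genes of like span are the protein-coding genes in the same of 20 span classes, weighted so that each class counts as often as it has members. In the gene body itself a peak was found at 62 of 78 genes (79.5%, interval 68.8 to 87.8%), against 66.6% of all protein-coding genes and 61.4% of genes of like span. Intervals here are at 95%, treat genes as independent and cover counting error only. No test was made of these differences, since the list has no replicate and genes are not replicates.

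The number of peaks per gene was modest. The 78 genes had a median of 4 peaks within 5 kb, with quartiles of 2 and 7 and a highest value of 15, and the median for genes of like span was 3. A single peak was listed at 15 genes (19.2%, against 9.65% of genes of like span), 2 to 4 at 27 (34.6% against 21.1%) and 5 to 9 at 27 (34.6% against 24.2%). Only 8 genes had 10 or more (10.3%), against 15.8% of genes of like span. The members thus differed from genes of like span mostly in the class with 0 peaks, which held 1 member (1.28%) and 29.3% of genes of like span. Per kb of gene plus flanks, the median was 0.185 peaks (exact interval of the median 0.149 to 0.255), against 0.150 for genes of like span. The ratio of these medians was 1.24, and its interval, from that of the members' median, was 0.995 to 1.70 and so included 1. The direction turned when genes of like span were also matched on the number of neighbouring genes (ratio 0.837) or on the CpG class of the promoter (0.770), comparisons added after seeing the data. The comparison by CpG class covers only genes with a listed start, among them 69 of the members, and is thus over a smaller set.

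**Figure D1:**
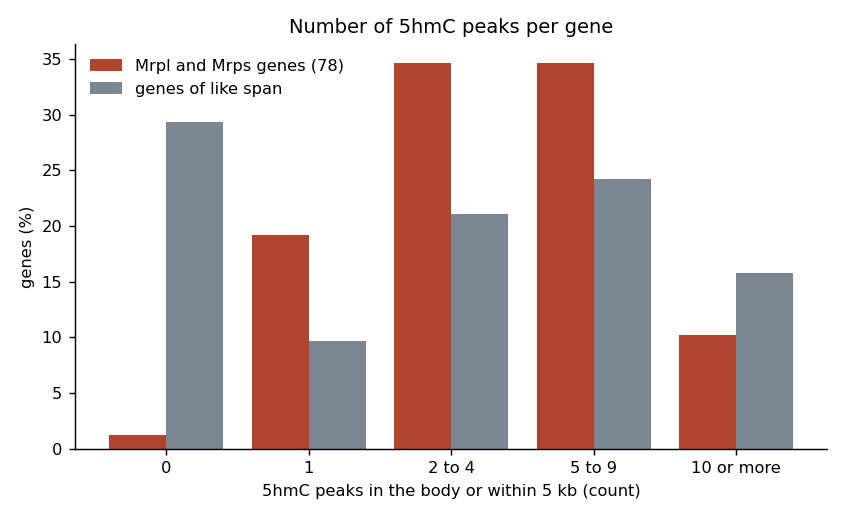
Share of genes (%) by number of 5hmC peaks in the body or within 5 kb, for the 78 Mrpl and Mrps genes (red) and genes of like span (grey). The class with 0 peaks held 1.28% of members and 29.3% of genes of like span, while the class with 10 or more held 10.3% and 15.8%.

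By position, chromosome 11 held 11 members (14.1% of them, against 7.36% of all protein-coding genes), and chromosome 17 held 8. The 11 genes on chromosome 11 had a median of 7 peaks and 0.358 per kb, and the 500 kb beyond the flank on either side had a median of 321 peaks per Mb. The other 67 had a median of 3 peaks and 0.171 per kb, in surroundings with 161 per Mb, and 66 of them had a peak within 5 kb. Over all 78 genes the surroundings held a median of 180 peaks per Mb, against 148 for genes of like span. The part of the neighbourhood in the members' counts was not tested.

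The genes named for the small subunit held the highest counts, with 7 of the 8 genes that had 10 or more peaks. Median counts were close, at 4 for Mrps and 3 for Mrpl genes, and 3 for genes of like span to each. Mrps27, which encodes an RNA-binding pentatricopeptide repeat protein, had the most, with 15 peaks (exact Poisson interval 8.40 to 24.7) on chromosome 13 (99344767 to 99415562), of which 14 lay in its body of 70.8 kb. Mrps9, a small subunit protein with a bacterial counterpart, had 13 peaks on chromosome 1 (42851233 to 42905683), 12 of them in the body. Mrps35 had 12 (chromosome 6, 147042728 to 147070906), with 10 in the body. Genes of like span to these had medians of 8, 7 and 5 peaks, so all of these counts were above the middle of their class. Mrps28, the longest member at 121.7 kb (chromosome 3, 8802146 to 8923857), had 10 peaks, fewer than the median of 13 in its class. Mrpl1, whose bacterial counterpart forms a mobile stalk of the large subunit, had 10 peaks, all in its body (chromosome 5, 96209498 to 96266727). Its wider surroundings were poor in peaks, at 7 per Mb.

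Other genes had many peaks in their flanks. Mrps7, the counterpart of a bacterial protein that binds the RNA of the small subunit head, had 13 peaks (6.92 to 22.2) around a span of only 3.90 kb on chromosome 11 (115604140 to 115608036). Of these, 3 lay in its body and 10 lay in the neighbouring genes Gga3 and Mif4gd. Mrps34, a mitochondria-specific small subunit protein, had 10 peaks around 1.17 kb on chromosome 17 (24895120 to 24896289), with 1 in its body and 9 in Spsb3, Eme2, Nme3 and Mapk8ip3. Mrps15 had 11 peaks, 6 in the body and 3 in Oscp1 (chromosome 4, 126046928 to 126055536). Mrpl52 and Mrpl49, both mitochondria-specific large subunit proteins, had 9 each, with 2 and 3 in the body. These 5 were the densest members with at least 5 peaks, at 0.935 peaks per kb for Mrps7, 0.895 for Mrps34, 0.701 for Mrpl52, 0.637 for Mrpl49 and 0.591 for Mrps15. They rest on 9 to 13 peaks each, and in all but Mrps15 more of these lay outside the gene than in it.

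Mrpl58, a peptidyl-tRNA hydrolase built into the large subunit that frees stalled ribosomes, had more peaks in its body than any other member with a span under 10 kb. Its body of 8.95 kb on chromosome 11 (115403724 to 115412674) held 8 of its 9 peaks, the first 3240 bp from the start and the last 7848 bp. Mrps6 had 9 peaks over 53.9 kb on chromosome 16 (92058336 to 92112227), and 4 of the 7 in its body also lay in Slc5a3, the gene of a myo-inositol transporter listed inside it. Besides Mrps6, only Mrpl18, Mrpl19, Mrps18a and Mrps25 had a peak that lay in both their own body and another coding gene, with 1 each. Peaks in overlapping genes cannot be given to one of them.

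**Figure D2:**
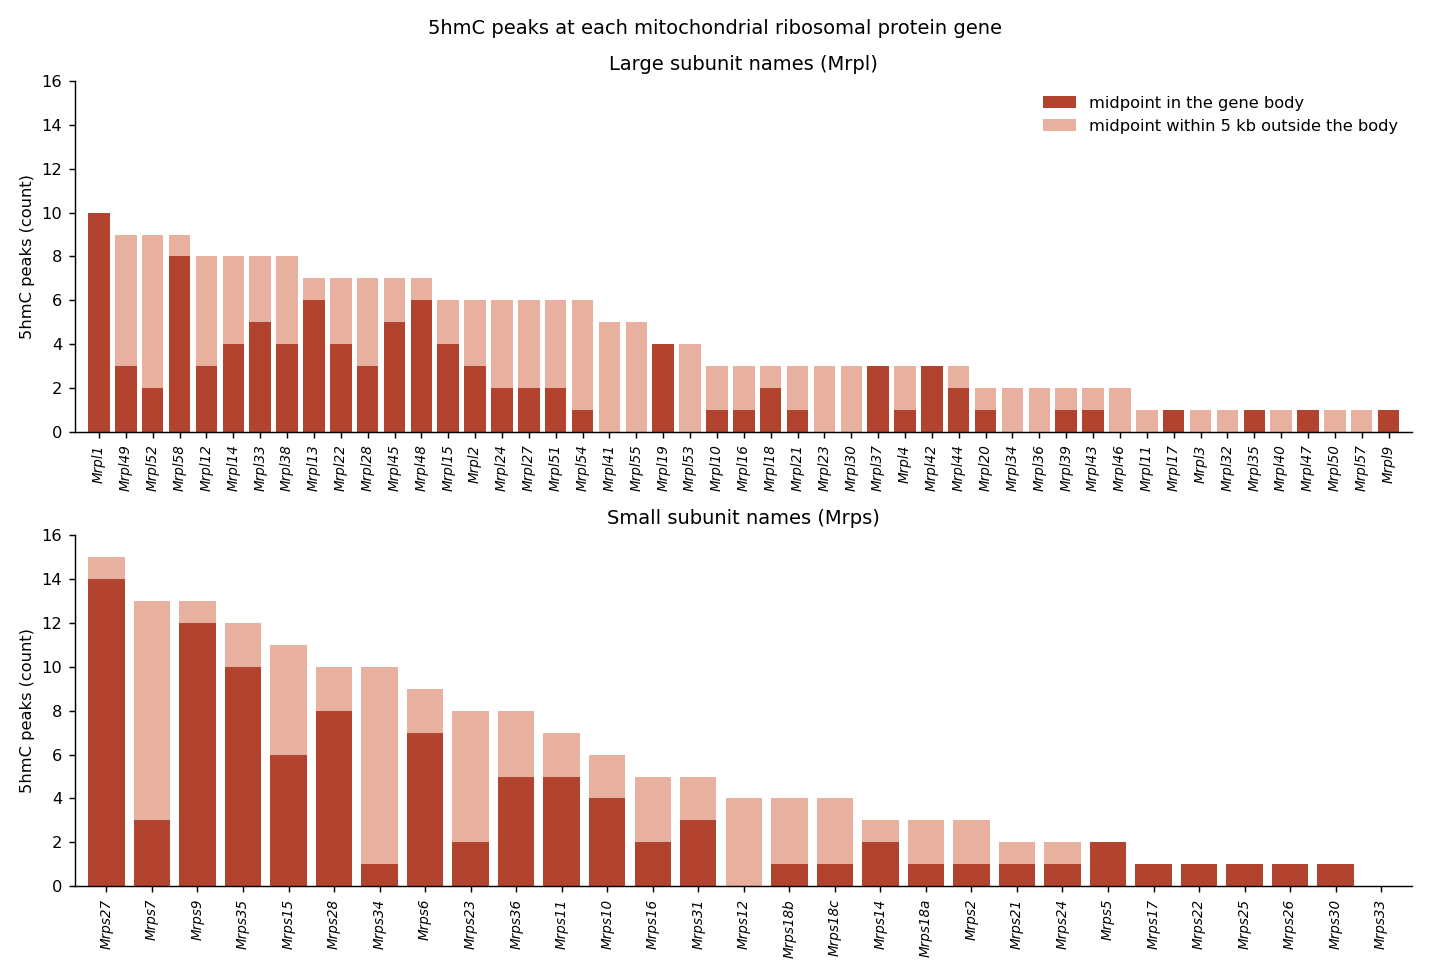
Number of 5hmC peaks at each of the 49 Mrpl genes (top) and 29 Mrps genes (bottom), split into midpoints in the gene body (dark) and within 5 kb outside it (light). Mrps27 has the highest bar, 15 peaks, and Mrps33 has none.

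At the low end, Mrps33, a mitochondria-specific small subunit protein, was the only member with 0 peaks within 5 kb (chromosome 6, 39801804 to 39810936). The nearest listed peak lay 16348 bp beyond its span, although 76.0% of genes in its span class had one inside the 5 kb window. Of the 15 genes with 1 peak, 9 had it in the body. Among them were Mrps17, Mrpl9 and Mrpl47, with bacterial counterparts, and Mrps22, Mrps25, Mrps26 and Mrps30, which are mitochondria-specific. Mrpl3, a large subunit protein near the peptidyl transferase centre, spans 24.2 kb and had 1 peak, 4196 bp outside its body.

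By role, 47 genes encode proteins with a bacterial counterpart and 31 encode mitochondria-specific ones. The 5 kb window held a peak at 30 of 31 mitochondria-specific genes and 47 of 47 genes with a counterpart, and one in the body at 23 (74.2%) and 39 (83.0%). In genes of like span to each, the shares were 68.1% and 72.4% within 5 kb and 58.4% and 63.3% in the body. Their median densities were 0.130 and 0.157 peaks per kb. The median density was 0.186 peaks per kb for mitochondria-specific genes (interval 0.0963 to 0.370) and 0.185 for genes with a counterpart (0.149 to 0.249), and these intervals overlap. By subunit name, 35 of 49 Mrpl genes (71.4%, interval 56.7 to 83.4%) and 27 of 29 Mrps genes (93.1%, 77.2 to 99.2%) had a peak in the body, beside 59.1% and 65.3% of genes of like span. The intervals overlap, the median densities were 0.182 and 0.188 per kb, and the difference in the body was not tested. Names follow history: the products of Mrps18a and Mrps30 sit in the large subunit in mammals, and that of Mrps36 belongs to the 2-oxoglutarate dehydrogenase complex.

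Mrps18a, Mrps18b and Mrps18c are paralogs whose proteins share a bacterial relative, and they had 3 or 4 peaks each. Mrps18b, on chromosome 17 (35910380 to 35916440), had 4, with 1 in its body at 1328 bp from its start and the rest in Ppp1r10 and Atat1. Mrps18c, on chromosome 5 (100798759 to 100804467), also had 4, with 1 in its body at 2105 bp and the others in Helq and Abraxas1. Mrps18a, on chromosome 17 (46111004 to 46128908), had 3, all at its far end within Rsph9, with the one in the body 17880 bp from the start. The peak nearest to its start lay 6624 bp away, outside the window. Genes of like span had medians of 3, 2 and 5 peaks for Mrps18b, Mrps18c and Mrps18a.

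Neighbouring genes stood close to most members. At least 1 other protein-coding gene reached into the window of 60 members (76.9%), against 54.0% of genes of like span. Of the 374 pairs of a member and a peak, 191 were in the member's body alone, 8 in its body and another coding gene as well, 102 in the flank inside another coding gene and 73 in the flank outside any coding gene. For 10 members, every peak within 5 kb lay in another coding gene, Mrpl41 with 5 and Mrps12 with 4 having the most. When genes were also matched on the number of neighbours, the comparison changed. Members with no neighbour had a peak at 17 of 18 genes (94.4%), against 55.8% of such genes of like span. With 1 neighbour it was 34 of 34 against 84.5%, and with 2 or more 26 of 26 against 93.0%. The median density with 1 neighbour was 0.196 peaks per kb in members against 0.202 in genes of like span, and with 2 or more 0.344 against 0.384. Only members without a neighbour had a higher median than such genes of like span, at 0.0911 against 0.0526 per kb.

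No peak touched a listed promoter of these genes. The RefSeq promoter windows used give starts for 69 of the 78 genes, on build GRCm38.p6, whose chromosomes are those of the mm10 build of the files. The other 9, among them Mrps28, Mrps34 and Mrps35, are left out of all results on starts and promoters. The 69 genes have 75 promoter windows of 300 bp, from 250 bp before to 50 bp after the start, and 0 of the 75 overlapped a peak, with an exact upper limit of 4.80%, against 4.55% of the windows of all protein-coding genes. Counting the outermost start of each gene, it was 0 of 69, against 4.01% of all protein-coding genes, a share inside the members' exact interval of 0 to 5.21%. The nearest peak midpoint lay between 392 and 19968 bp from the start, with a median of 1729 bp.

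Around the start the peaks left a gap. From 250 bp before to 500 bp after the start, the 69 genes held 0 peaks, where genes of like span had between 0.122 and 0.148 peaks per kb in each class of 250 bp. The upper limits for the members were 0.214 per kb in each class, above the level of genes of like span in each single class. Few or no peaks in these classes were not particular to the members. The 32 proteasome genes with a listed start held 0 there. The 63 cytosolic ribosomal protein genes held 1, from 0 to 250 bp after the start. The 69 oxidative phosphorylation genes held 2, from 0 to 250 bp before it. Taking 250 bp on both sides of the start together, 0 of 69 members had a peak (exact interval 0 to 5.21%), against 6.70% of genes of like span, which lies above that interval. Within 500 bp on both sides of the start, 2 of 69 members had a peak (2.90%, interval 0.353 to 10.1%), against 13.2% of genes of like span. These were Mrpl24, with a peak midpoint 392 bp from its listed start and inside its annotated span, and Mrps24, with one 470 bp from its start and outside its body. From 500 to 1000 bp after the start the members had 0.261 peaks per kb, and from 1000 to 2500 bp 0.319, beside 0.232 and 0.303 in genes of like span. On the upstream side the density was 0.242 at 1000 to 2500 bp and 0.116 at 500 to 1000 bp, beside 0.217 and 0.251.

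**Figure D3:**
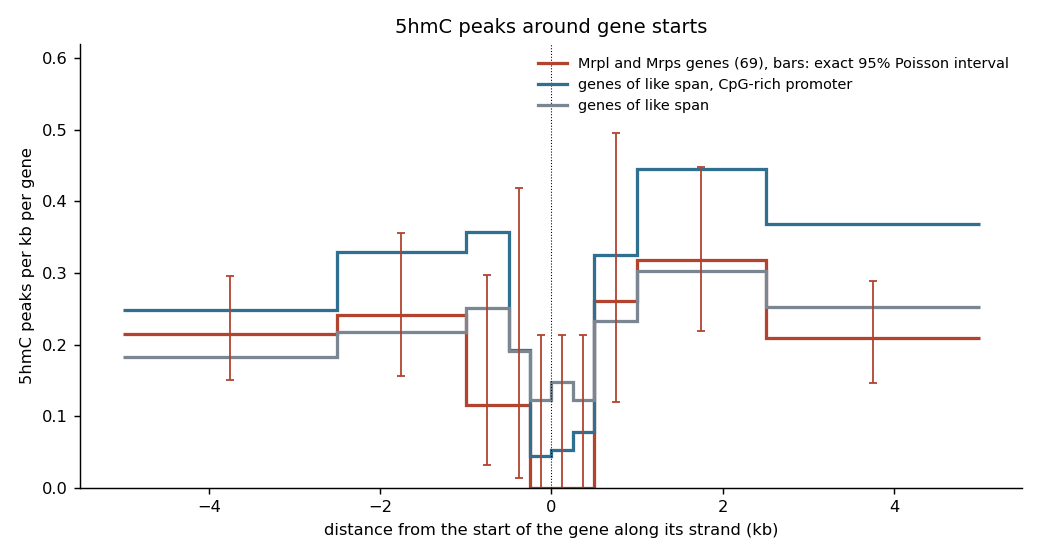
Density of 5hmC peaks (per kb per gene) by distance from the gene start (kb, along the strand) for 69 Mrpl and Mrps genes (red, bars are exact 95% Poisson intervals), genes of like span with a CpG-rich promoter (blue) and all genes of like span (grey). The members held 0 peaks from 250 bp before to 500 bp after the start and 0.319 per kb at 1000 to 2500 bp after it.

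The promoters were rich in CpG, the dinucleotide in which 5hmC mostly lies. They had a median of 21 CpG per 300 bp window, a GC content of 58.3% and an observed to expected CpG ratio of 0.818, against 13, 56.3% and 0.577 for all protein-coding genes. A window was called CpG-rich at a ratio of at least 0.6 with at least 55% GC, which 48 of 69 members met (69.6%), against 41.3% of all genes with a listed start. Of all CpG-rich windows, 1.84% overlapped a peak, against 6.44% of the other windows. The windows of 3 members follow, with every CpG in capitals, read 5′ to 3′ along the gene. Members ranged from 7 to 39 CpG. Mrps7 has 38 and the highest density of peaks around it, Mrps33 has 21 and no peak, and Mrpl44, an RNase III-like protein of the large subunit, has 7, the fewest.
Mrps7 (chr11:115603890-115604189, plus strand): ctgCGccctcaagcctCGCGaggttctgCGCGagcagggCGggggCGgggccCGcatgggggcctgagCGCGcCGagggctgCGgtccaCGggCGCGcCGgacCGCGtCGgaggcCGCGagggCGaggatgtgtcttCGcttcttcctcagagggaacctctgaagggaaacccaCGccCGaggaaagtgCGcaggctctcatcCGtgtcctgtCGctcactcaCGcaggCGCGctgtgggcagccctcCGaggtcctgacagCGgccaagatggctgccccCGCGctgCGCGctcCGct
Mrps33 (chr6:39810887-39811186, minus strand): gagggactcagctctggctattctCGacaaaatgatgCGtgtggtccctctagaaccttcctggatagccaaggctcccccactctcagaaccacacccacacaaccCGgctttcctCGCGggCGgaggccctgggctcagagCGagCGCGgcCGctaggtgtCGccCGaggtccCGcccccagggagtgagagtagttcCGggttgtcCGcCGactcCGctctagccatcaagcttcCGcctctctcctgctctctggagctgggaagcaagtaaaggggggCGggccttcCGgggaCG
Mrpl44 (chr1:79775768-79776067, plus strand): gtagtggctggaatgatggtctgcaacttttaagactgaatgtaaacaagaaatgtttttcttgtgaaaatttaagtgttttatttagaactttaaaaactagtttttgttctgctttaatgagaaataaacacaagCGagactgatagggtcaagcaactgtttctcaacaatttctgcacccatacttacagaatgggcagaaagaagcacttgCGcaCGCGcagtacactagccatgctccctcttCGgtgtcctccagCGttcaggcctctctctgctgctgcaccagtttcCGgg
At Mrps7 the nearest peak lay 852 bp from the start, and at Mrpl44 the nearest lay 2038 bp away. The 3 windows thus differ in CpG by a wide margin and are alike in holding no listed peak.

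Against genes of like span that also have a CpG-rich promoter, the members had a higher share with a peak but a lower median density. Of the 48 members with a CpG-rich promoter, 47 had one within 5 kb (97.9%), against 89.5% of such genes of like span. A peak in the body was found at 37 of the 48 members (77.1%) and 77.0% of the genes of like span. The median density was 0.187 per kb in these members and 0.283 in genes of like span, a direction opposite to that over all genes of like span. Of the 21 members with another promoter, 21 had a peak, against 61.6% of such genes of like span, and their median densities were 0.146 and 0.0710 per kb. Near the start, all 69 members were set beside genes of like span with a CpG-rich promoter. These comparison genes were weighted by the span classes of the 48 members with such a promoter, while the 69 include the 21 without one. The sides are thus not matched in promoter class. Within 250 bp a peak was found at 0 of 69 members, against 2.41% of the comparison genes. Within 500 bp it was 2.90% against 8.76%, and both comparison shares lay inside the members' intervals. Within 1000 bp it was 21.7% of members (interval 12.7 to 33.3%) against 36.0%, which lies above that interval. Within 2500 bp it was 66.7% (54.3 to 77.6%) against 74.3%, and within 5000 bp 87.0% (76.7 to 93.9%) against 83.9%. These differences were not tested.

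Starts shared with a gene on the other strand were common. For 24 of the 69 members (34.8%), a start of another protein-coding gene on the opposite strand was listed within 1000 bp upstream, against 8.04% of all genes with a listed start. The median distance between such starts was 136 bp, and the nearest peak to the member's start lay between 852 and 8761 bp away. Partners included Twnk, the mitochondrial DNA helicase, for Mrpl43, and Sars2, the mitochondrial seryl-tRNA synthetase, for Mrps12. They also included Ndufb5, a subunit of respiratory complex I, for Mrpl47, Fau, the source of a cytosolic ribosomal protein, for Mrpl49, and Psma2, a proteasome subunit, for Mrpl32. Mrpl46 and Mrps11, on chromosome 7, are each other's partner, with starts 42 bp apart. Mrps11 had 7 peaks and Mrpl46 had 2, and both peaks of Mrpl46 lay in the body of Mrps11. The window of Mrps11, which reaches back over the start of Mrpl46, is shown with CpG in capitals.
Mrps11 (chr7:78782881-78783180, plus strand): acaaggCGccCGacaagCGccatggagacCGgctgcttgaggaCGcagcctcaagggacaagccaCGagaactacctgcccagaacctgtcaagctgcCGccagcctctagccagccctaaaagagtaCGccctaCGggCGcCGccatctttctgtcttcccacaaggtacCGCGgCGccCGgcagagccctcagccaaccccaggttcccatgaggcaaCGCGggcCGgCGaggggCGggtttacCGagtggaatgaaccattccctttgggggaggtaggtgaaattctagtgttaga
It holds 21 CpG, and the nearest peak midpoint lay 2453 bp into Mrps11.

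Short sequences known as binding motifs were searched on both strands in the outermost window of each of the 69 genes. The core of the motif of nuclear respiratory factor 1 (NRF1), GCGC followed after any 2 bases by GCGC, was in 14 windows (20.3%), against 8.87% of all 17492 promoter windows and 18.6% of CpG-rich ones. CCGGAAG, the core bound by ETS factors such as GABPA, was in 24 (34.8% against 11.9% and 19.8%). AAGATGGC, part of the YY1 motif, was in 12 (17.4% against 3.21% and 4.99%). CACGTG, the E-box bound by MYC and MAX, was in 5 (7.25% against 7.91% and 11.8%), and TGACGTCA, bound by CREB, in 2 (2.90% against 2.33% and 3.85%). A match is a description of the sequence and not a site of binding. The windows of 4 genes show these matches in capitals: Mrps27 and Mrps12, the counterpart of the bacterial decoding protein S12, have an ETS core and a YY1 core, Mrpl32 has a YY1 core and an NRF1 core, and Mrpl57 an NRF1 core and an ETS core.
Mrps27 (chr13:99344536-99344835, plus strand): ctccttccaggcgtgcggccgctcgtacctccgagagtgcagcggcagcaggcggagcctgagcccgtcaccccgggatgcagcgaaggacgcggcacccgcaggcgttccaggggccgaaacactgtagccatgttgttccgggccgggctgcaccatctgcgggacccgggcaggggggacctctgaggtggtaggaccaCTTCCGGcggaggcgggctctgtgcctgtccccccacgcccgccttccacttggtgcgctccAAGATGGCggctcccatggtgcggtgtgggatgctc
Mrps12 (chr7:28741772-28742071, minus strand): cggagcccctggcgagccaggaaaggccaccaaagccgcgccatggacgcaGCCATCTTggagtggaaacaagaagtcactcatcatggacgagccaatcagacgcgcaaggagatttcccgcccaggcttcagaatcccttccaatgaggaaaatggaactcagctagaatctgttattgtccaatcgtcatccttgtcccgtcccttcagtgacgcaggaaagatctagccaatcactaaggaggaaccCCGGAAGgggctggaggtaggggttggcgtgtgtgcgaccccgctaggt
Mrpl32 (chr13:14612988-14613287, minus strand): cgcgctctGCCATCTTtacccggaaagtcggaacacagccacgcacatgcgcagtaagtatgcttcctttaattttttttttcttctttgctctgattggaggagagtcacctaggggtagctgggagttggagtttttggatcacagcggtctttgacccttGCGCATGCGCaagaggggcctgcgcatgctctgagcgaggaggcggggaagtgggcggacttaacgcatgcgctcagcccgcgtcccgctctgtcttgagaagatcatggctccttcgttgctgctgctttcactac
Mrpl57 (chr14:57825989-57826288, plus strand): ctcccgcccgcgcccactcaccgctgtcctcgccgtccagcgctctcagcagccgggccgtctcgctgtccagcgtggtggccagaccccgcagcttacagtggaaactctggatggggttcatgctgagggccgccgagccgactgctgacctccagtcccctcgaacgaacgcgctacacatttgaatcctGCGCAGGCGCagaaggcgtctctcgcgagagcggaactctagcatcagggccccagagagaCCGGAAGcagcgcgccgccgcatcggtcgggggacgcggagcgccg
Around these windows Mrps27 had 15 peaks within 5 kb of the gene, Mrps12 4, and Mrpl32 and Mrpl57 1 each. The peak nearest the start of Mrps12 lay in Sars2, 1103 bp upstream.

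**Figure D4:**
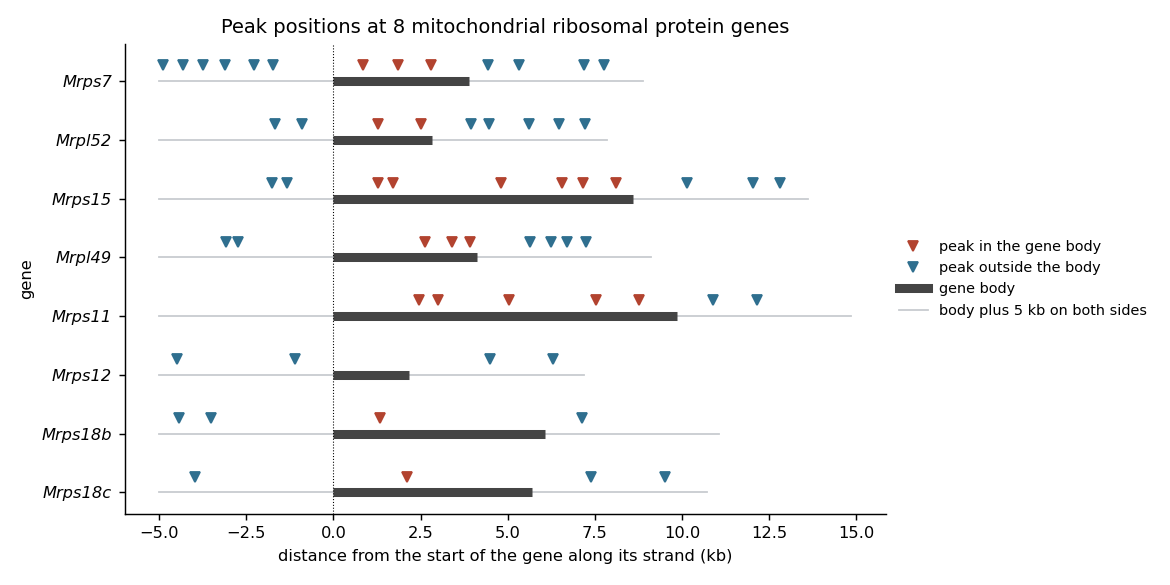
Peak positions (triangles, by midpoint) at 8 members, as distance from the outermost listed start (kb, along the strand). Thick bars are gene bodies and thin lines the 5 kb windows. No triangle is closer than 852 bp to a start, and most peaks of Mrps7 and all 4 of Mrps12 lie outside the body.

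Repeated lines were common at these genes. Of the 372 distinct peaks at members, 123 (33.1%) stood in the deposited list more than once, against 6.45% of all distinct peaks, near genes or not. Where 1 protein-coding gene lay within 5 kb of the peak, 12 of 165 were repeated (7.27%), and where 2 or more did, 111 of 207 were (53.6%). The share over all peaks near 2 or more genes was not counted, so the repeats cannot be called particular to the members. At Mrps34 the 10 peaks took up 26 lines, at Mrps7 the 13 peaks 23 lines, and at Mrpl51 the 6 peaks 16 lines. Each interval was counted once above. The peaks at members had a median width of 65 bp, the same as all peaks. 

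The other genes of mitochondrial translation were described in the same way. Of these, 49 of 53 had a peak in or near them (92.5%, interval 81.8 to 97.9%), against 77.4% of genes of like span, and their median density was 0.141 peaks per kb against 0.140. Of the 5 mitoribosome subunits without an Mrp symbol, Aurkaip1 and Gadd45gip1 had 6 peaks each, Dap3, a GTP-binding subunit known from apoptosis, and Ptcd3 had 4 each, and Chchd1 had 1. Of the translation factors, 12 of 14 had a peak (85.7%, interval 57.2 to 98.2%), against 81.0% of genes of like span. There were 15 at Lrpprc, which stabilises mitochondrial mRNAs, 5 at Tufm, the elongation factor that carries tRNA to the ribosome, and none at Guf1 and Taco1. Mitochondrial tRNA synthetases had one at 16 of 17 (94.1% against 81.4%), with 35 at Fars2 over its 420 kb, 25 at Cars2 and none at Yars2. Assembly factors had one at 16 of 17 (94.1% against 74.2%), with 7 each at Mrm1, Mrm2 and Mtg2 and none at Mterf4. In that order, median densities were 0.162, 0.141 and 0.129 per kb, against 0.154, 0.130 and 0.153 in genes of like span.

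Other large protein complexes gave a similar picture, with 1 difference in level. Peaks lay within 5 kb of 77 of 83 cytosolic ribosomal protein genes (92.8%), 73 of 84 oxidative phosphorylation subunit genes (86.9%) and 35 of 39 proteasome subunit genes (89.7%). All of these shares were above those of genes of like span, at 61.6%, 70.0% and 76.5%, and below that of the mitochondrial ribosomal protein genes, whose interval overlaps each of theirs. The median density of the members, 0.185 peaks per kb, was close to that of oxidative phosphorylation genes (0.176, interval 0.119 to 0.243) and proteasome genes (0.182, 0.0910 to 0.288). Cytosolic ribosomal protein genes had 0.333 per kb (0.262 to 0.396), an interval that lies above the members' interval of 0.149 to 0.255. No test was made of these differences. Promoter windows of cytosolic ribosomal protein and proteasome genes overlapped a peak in 0 of 63 and 0 of 32 genes, and those of oxidative phosphorylation genes in 2 of 69. The upper limits of their exact intervals were 5.69%, 10.9% and 10.1%. The share over all protein-coding genes, 4.01%, lay inside each interval.

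**Figure D5:**
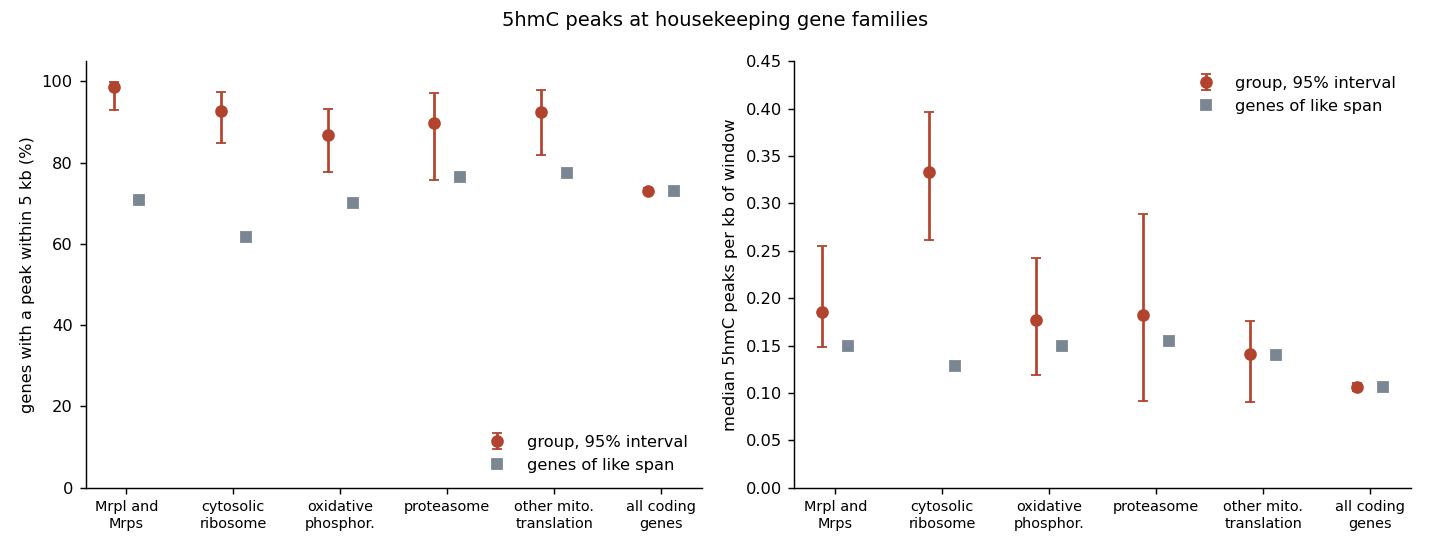
Share of genes with a 5hmC peak within 5 kb (left, %) and median peaks per kb of gene plus flanks (right), with exact 95% intervals, for the Mrpl and Mrps genes and 5 other sets; grey squares are genes of like span. The Mrpl and Mrps genes have the highest share, 98.7%, and a density of 0.185, against 0.333 for cytosolic ribosomal protein genes.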

How the data were processed

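Per the labels' protocols, sonicated genomic DNA of bone marrow cells was given an azide-bearing glucose on 5hmC with β-glucosyltransferase, coupled to biotin by click chemistry, bound to avidin and read from both ends. The mm10 build is per the submitters' processing notes, and which aligner was used is not stated in them. Per the file headers, the authors called peaks with PICS. It was set for reads of 99 bp and fragments of 200 bp and at least 3 reads per window and 10 per region. The headers also give an upstream padding distance for genes of 5000 and a maximum of 5 binding sites per gene. How these settings shaped the list was not tested. The deposited lists hold a chromosome, start and end for each peak and no measured value, so depth is unknown and no score cutoff could be applied.

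Each distinct interval was counted once, and 14799 repeated lines (6.63%) were set aside. Genes came from the RefSeq table of GRCm38.p6 (gene models starting below 3000000 bp on chromosomes other than Y left out), and starts and promoters from RefSeq promoter windows of the same build. A peak belonged to a gene when its midpoint lay in the span or within 5000 bp. Shares have exact binomial, counts exact Poisson and medians exact order-statistic intervals at 95%. Counting was tested on simulated peaks with Python 3.11.15, pandas 2.3.3 and scipy 1.17.1. The members, gene lists, motifs and comparisons were chosen with earlier results of these data known. Named genes were the 12 with the most peaks, the 5 densest, those with none, paralogs, those sharing peaks with another gene in their body, and subunits without an Mrp symbol. The planned rule printed promoters with a peak and found none, so the genes whose promoters are printed, and the other genes named, were chosen after their values were seen. Mrpl47 was moved to the genes with bacterial counterparts after values were seen, as the counterpart of a bacterial large subunit protein. No paired analysis and no test between groups was made.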

Additional observations from a re-analysis of the deposited data

How the results depend on the processing

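The share of Mrpl and Mrps genes with a peak within 5 kb, 98.7%, became 89.7% within 2 kb, 79.5% in the span only and 85.9% with peaks in other coding genes left out. The median of 4 peaks per gene became 7 within 10 kb, 1 in the span only and 2 without peaks in other genes, which also lowered the median density of 0.185 to 0.137 per kb. The ratio of shares to genes of like span, 1.40, became 1.29 in the span only, 1.30 without peaks in other genes, 1.22 with like numbers of neighbours, 1.22 with like promoter CpG class and 1.43 without chromosome 11. The ratio of median densities, 1.24, stayed between 1.12 (autosomal genes only) and 1.46 (peaks in other genes left out) under the other windows, counting rules and gene backgrounds tried. It fell below 1 with like numbers of neighbours (0.837) and with like promoter CpG class (0.770). These last 2 and the choice without chromosome 11 were added after seeing the data, and the cause of the reversals was not tested. Both ratios by CpG class cover only genes with a listed start, among them 69 of the members. Of the members' peaks with a listed start, 73 of 308 (23.7%) lay within 2.5 kb of it, 4.87% within 1 kb and 47.4% within 5 kb. Other mitochondrial translation genes with a peak stayed between 44 and 51, with 49 in the main count. Leaving out the list filed under either leukaemia replicate left every value as it was (98.7%, 4, 0.185, 1.40, 1.24, 49 and, in the body, 79.5%). This is because the lists are identical, and it says nothing about stability. A stricter score could not be applied, as the lists give none. No paired analysis was possible because the analysis rests on 1 distinct list, with no second group to pair it with. Depth is unknown, so genes with no peak may hold 5hmC below what was called, or no more than the control library held.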
